A study of Mus musculus with 6 samples.

Results

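Oxidative phosphorylation genes, the genes of the respiratory chain and of the ATP synthase, were taken by symbol from tables of 22298 mouse genes. The prefixes were those of the NADH dehydrogenase subunits and assembly factors (complex I), the succinate dehydrogenase subunits (complex II), the ubiquinol-cytochrome c reductase subunits (complex III), the cytochrome c oxidase subunits (complex IV) and the ATP synthase subunits (complex V), together with the protein-coding genes of the mitochondrial genome. This gave 109 genes, 96 encoded in the nucleus and 13 in the mitochondrial genome. The files' own pathway term for oxidative phosphorylation was carried by 98 of them. Messenger RNA was sequenced from flow-sorted C57BL/6 thymocytes labelled double-negative, the stage that carries neither CD4 nor CD8, while the extraction protocol names the DN2 stage within it. Toxf/f mice carry Tox alleles flanked by recombination sites. Toxf/fPdcd1Cre mice have these alleles plus a Cre recombinase whose name refers to Pdcd1, and the labels do not say in which of the sorted cells it was active. The mice were aged 3 weeks for replicates 1 and 2 of each genotype and 4 weeks for replicate 3, none was treated, and the labels do not say whether mice were pooled.

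For Toxf/f, the tables deposited as replicates 1 and 2 held the same values throughout, with the number 2 in the column headers of both, and were counted as 1 library. The comparison thus rests on 2 Toxf/f and 3 Toxf/fPdcd1Cre libraries of 14245492 to 16199195 estimated counts each. No label ties a sample to its own mouse, so the p-values reflect the spread among these libraries alone, which may be technical. Tox had 121 and 105 CPM (counts scaled to a common library total after TMM, the trimmed mean of M-values) in Toxf/f and 19.2, 16.4 and 13.8 CPM in Toxf/fPdcd1Cre libraries. Its log2 fold change was -2.78 ± 0.161 (SE; adjusted p = 6.72e-06, quasi-likelihood test of edgeR, adjusted by Benjamini-Hochberg). Among markers, Cd8a stood at 1395 to 2017 CPM in all libraries, against 86.9 to 132 CPM for Il2ra, a receptor gene of early double-negative cells, so the label is used here only as given.

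The respiratory chain passes electrons from NADH and succinate through complexes I to IV to oxygen and pumps protons across the inner mitochondrial membrane, and complex V uses the returning protons to make ATP. Complexes I, III, IV and V are built from subunits of both genomes, while complex II is wholly nuclear. The mitochondrial genes are transcribed as long precursors from both strands of a small circular genome and then separated, whereas each nuclear gene has a promoter of its own. Thymocytes shift between glycolysis and respiration as they pass from proliferating to resting stages.

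Levels are first described per transcript length, as the deposited FPKM, which scales fragments by transcript length and library size, averaged over the 5 libraries. The 13 mitochondrial genes ranged from 271 FPKM for mt-Nd6 to 8058 FPKM for mt-Co1, with a median of 1024 FPKM. mt-Co1, the catalytic subunit of complex IV, ranked 1 among all 22298 genes. Nuclear members had a median of 81.9 FPKM, below the lowest mitochondrial gene, and reached 566 FPKM in Atp5b, the catalytic beta subunit of ATP synthase. Levels differed between nuclear classes. Medians were 224 FPKM for the 12 widely expressed complex IV genes and 205 FPKM for the 18 complex V genes, against 118 FPKM for the 8 genes of complex III and 80.6 FPKM for the 4 of complex II. In complex I the 7 nuclear core subunits had a median of 60.3 FPKM and the 30 accessory subunits 67.8 FPKM. The 8 complex I assembly factors, which help build the complex without remaining in it, had a median of 11.0 FPKM.

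**Figure D1:**
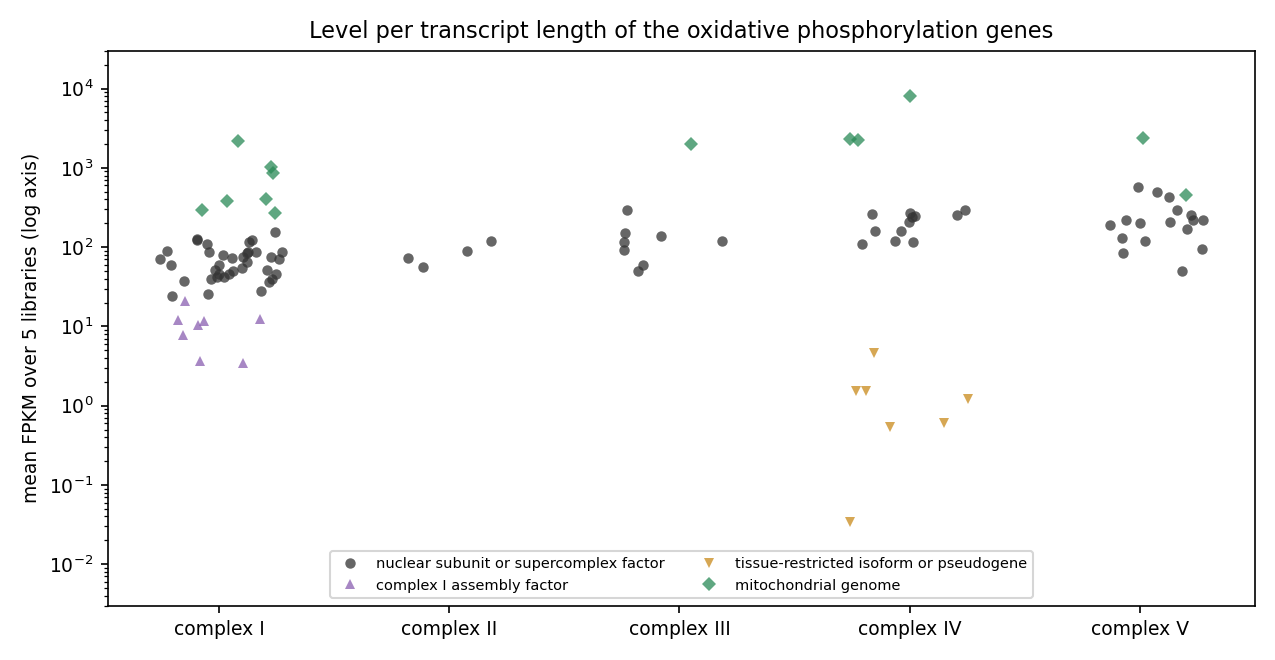
Mean FPKM over the 5 libraries (log axis) of each oxidative phosphorylation gene above 0, by complex. Mitochondrial genes lie at 271 FPKM and above, tissue-restricted isoforms and the pseudogene at 4.55 FPKM and below.

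Several complex IV subunits exist as a widely expressed gene and an isoform restricted to muscle, lung, testis or hypoxic cells, and these libraries held almost only the widely expressed ones. Cox6a1 had 248 FPKM in Toxf/fPdcd1Cre and 249 FPKM in Toxf/f libraries, while its heart and muscle isoform Cox6a2 had 1.11 and 1.36 FPKM. Cox4i1 averaged 238 FPKM over all libraries, and its lung isoform Cox4i2 averaged 0.612 FPKM. Cox6b2, the testis isoform of Cox6b1, averaged 4.55 FPKM and was the highest of the 8 isoforms. Ndufa4 averaged 158 FPKM, and Ndufa4l2, its hypoxia-induced relative, 1.54 FPKM. Cox7a1, the heart and muscle isoform, averaged 1.54 FPKM against 158 FPKM for Cox7a2, the liver type. Cox8b averaged 0.538 FPKM against 293 FPKM for Cox8a. Cox8c and Cox7b2 had 0 counts in every library, as did a second gene model of Atp5o. A count of 0 allows up to 3 counts, or 0.181 to 0.206 CPM, by counting error alone.

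The comparison of the genotypes asks whether these transcripts differ when the gene of the transcription factor Tox is targeted. None of the 103 members that passed the filter on low counts changed between the genotypes, by edgeR's quasi-likelihood test across 14121 genes. Over all genes tested, 1.64% were called. DESeq2 and limma-voom also called 0 members, against 359 and 297 of all 14121 genes tested. At an unadjusted p under 0.05 there were 2 members of 103, against 10.3% of all genes tested. The smallest adjusted p was 0.397, for mt-Nd4l. The 6 members that were not tested were Cox4i2, Cox7b2, Cox8b, Cox8c, the pseudogene Cox5b-ps and the second model of Atp5o, all at or near 0 counts. In bulk RNA a difference in the number of cells of a type and a difference in RNA per cell cannot be told apart.

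Measured by the spread among these libraries alone, which may be technical, most of these differences had narrow intervals. The 95% interval of the fold change, unadjusted for the number of genes, lay within a 2-fold change in either direction for 99 of the 103 members and within a 1.5-fold change for 84. Among all 14121 genes the same held for 10320 and 7127. The 4 members with wider intervals were Ndufaf6, Cox6a2, Cox7a1 and Ndufa4l2, which were also among those with the fewest counts. The median standard error was 0.145 on the log2 scale for nuclear and 0.173 for mitochondrial members.

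**Figure D2:**
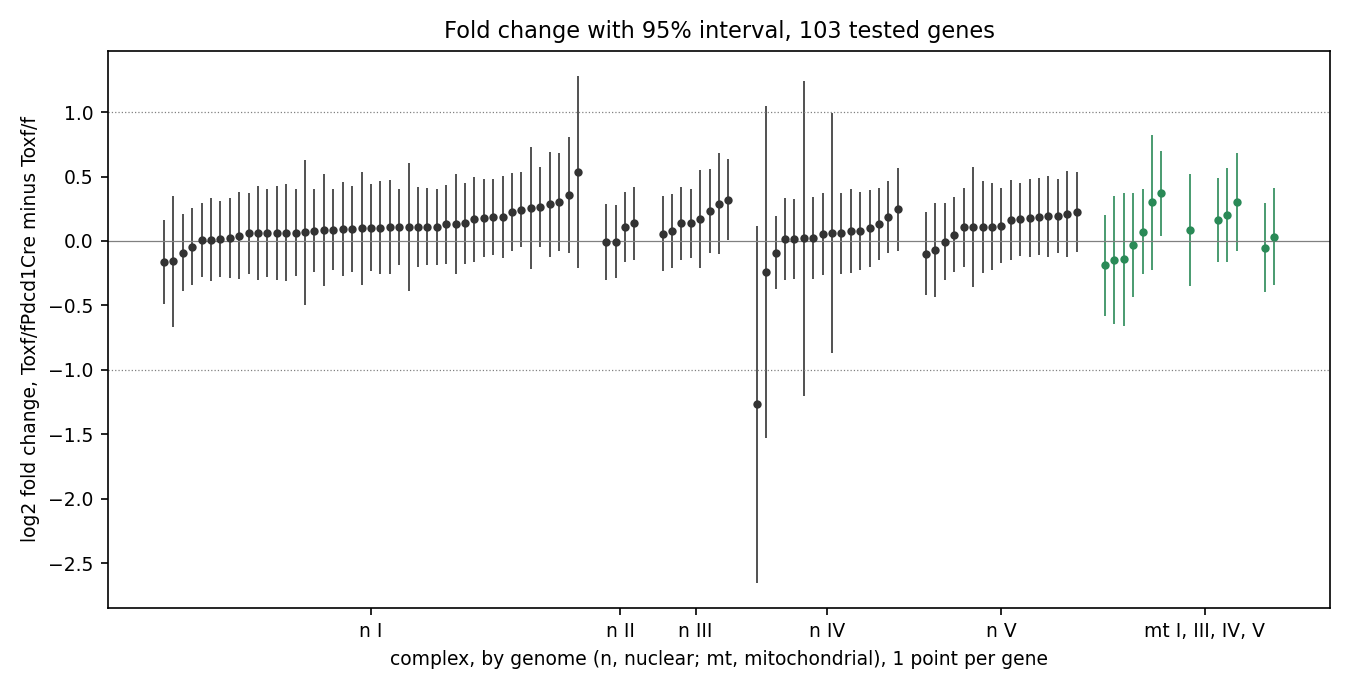
Log2 fold change (Toxf/fPdcd1Cre minus Toxf/f) of each of the 103 tested members with its 95% interval from edgeR, grouped by genome and complex and sorted within each group. Most points lie slightly above 0 in the nuclear groups, and all but 4 intervals stay between -1 and 1.

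The nuclear members had small fold changes, mostly of the same sign. The log2 fold change was above 0 in 78 of 90, against 54.8% of all genes, and the median was 0.11 (0.03 over all genes). Both depended on Toxf/f replicate 3: without it, 41 of 89 were above 0 and the median was -0.03. With only that Toxf/f library left, the median was 0.25. In 20 of the 90 all Toxf/fPdcd1Cre libraries lay above both Toxf/f libraries, against 12.6% of all genes. In 1, Cox7a1, they lay below, against 13.5%. None of these differences passed the test.

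In complex I, which takes electrons from NADH, 41 of 45 nuclear members had a fold change above 0. Ndufv2, an iron-sulfur core subunit of the NADH-oxidizing arm, had 131 and 115 CPM in Toxf/f and 158, 136 and 143 CPM in Toxf/fPdcd1Cre libraries. The groups did not overlap, although the lowest Toxf/fPdcd1Cre library stood just above the higher Toxf/f library (log2 fold change 0.24 ± 0.132 SE, adjusted p = 0.592, edgeR). Ndufs1, the largest core subunit, had 108 and 94.0 CPM against 129, 106 and 119 CPM, so that the groups overlapped. Ndufs8, another iron-sulfur core subunit, averaged 68.0 ± 8.59 CPM in Toxf/f (SD, n = 2) and 73.3 ± 1.58 CPM in Toxf/fPdcd1Cre libraries (SD, n = 3). Among accessory subunits, 29 of 30 had a fold change above 0. Ndufb5, of the membrane arm, had 87.9 and 68.6 CPM against 95.9, 93.8 and 92.0 CPM. Here the lower Toxf/f value made most of the difference (0.26 ± 0.141 SE, adjusted p = 0.574, edgeR). Ndufc2 had the highest level per length of the accessory subunits, with 154 ± 13.0 FPKM (SD, n = 2) and 157 ± 27.8 FPKM (SD, n = 3). Ndufb1-ps, named as a pseudogene by its symbol, had 19.0 and 15.1 CPM against 19.5, 21.6 and 21.7 CPM.

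Of the 8 complex I assembly factors, 7 had a fold change above 0. Ndufaf1 had 15.1 and 14.6 CPM in Toxf/f and 21.4, 16.3 and 16.7 CPM in Toxf/fPdcd1Cre libraries, and Toxf/fPdcd1Cre replicate 1 stood above the rest. Ndufaf6 had the largest positive fold change of all members, 0.54 ± 0.339 (SE), from 3.97 and 2.35 CPM to 5.19, 4.28 and 4.26 CPM, with an adjusted p of 0.683 (edgeR). Ndufaf2 was at 9.86 and 8.25 CPM against 7.99, 7.08 and 9.26 CPM, and Ndufaf8 at 15.0 and 11.0 CPM against 14.4, 14.0 and 13.2 CPM. The groups overlapped in both.

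Complex II, which feeds electrons from succinate and also works in the citric acid cycle, had the smallest median log2 fold change of the nuclear complexes. It was 0.05 over its 4 genes, next to 0.06 over the 16 tested nuclear members of complex IV. Sdha, the flavoprotein that oxidizes succinate, had 200.3 and 190 CPM in Toxf/f and 205, 232 and 207 CPM in Toxf/fPdcd1Cre libraries. Sdhb, the iron-sulfur subunit, had 146 and 123 CPM against 137, 130 and 136 CPM, a log2 fold change of -0.01 with a 95% interval of -0.29 to 0.28. Sdhd, a membrane anchor, had 107 and 101 CPM against 119, 108 and 109 CPM. In 2 of the 4 genes, Sdha and Sdhd, every Toxf/fPdcd1Cre library was above both Toxf/f libraries, against 12.6% of all genes tested. Neither passed the test.

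In complex III, which passes electrons from ubiquinol to cytochrome c, all 8 nuclear members had a fold change above 0, with a median of 0.15. Uqcr10, a small accessory subunit encoded on chromosome 11 from 4701973 to 4704342 (GENCODE M21 on GRCm38), had 56.9 and 47.9 CPM in Toxf/f and 63.9, 71.3 and 61.0 CPM in Toxf/fPdcd1Cre libraries. Every Toxf/fPdcd1Cre library exceeded both Toxf/f libraries. Its log2 fold change of 0.32 ± 0.143 (SE) was the only nuclear one with an unadjusted p under 0.05 (adjusted p = 0.468, edgeR). Uqcr11 had 26.8 and 19.6 CPM against 25.3, 32.2 and 27.4 CPM. Uqcrh, another accessory subunit, had 157 and 132 CPM against 157, 195 and 157 CPM, and Toxf/fPdcd1Cre replicate 2 stood apart. Uqcrc2, a core protein, had 277 and 256 CPM against 300.2, 284 and 294 CPM. Cyc1, the gene of cytochrome c1, is not among the members by symbol. Its level was 84.9 ± 12.3 CPM in Toxf/f (SD, n = 2) and 82.6 ± 5.44 CPM in Toxf/fPdcd1Cre libraries (SD, n = 3).

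Complex IV, the oxidase that reduces oxygen, had 11 of 12 widely expressed nuclear members above 0, with a median of 0.07. Cox7c had 152 and 113 CPM in Toxf/f and 157, 157 and 158 CPM in Toxf/fPdcd1Cre libraries. The Toxf/fPdcd1Cre libraries were almost equal, and the Toxf/f library of replicates 1 and 2 lay close to them while replicate 3 lay lower (0.25 ± 0.147 SE, adjusted p = 0.646, edgeR). Cox4i1, the regulatory subunit that binds ATP, had 186 and 166 CPM against 163, 206 and 165 CPM. Cox8a was the exception, at 181 and 154 CPM against 164, 154 and 153 CPM, with a log2 fold change of -0.09. Among isoforms, Cox7a1 had the largest fold change of all members in size, -1.27 ± 0.631 (SE), but only 10 and 20 counts in Toxf/f and 6, 5 and 6 in Toxf/fPdcd1Cre libraries (adjusted p = 0.535, edgeR). Cox8b had 4 and 6 counts against 3, 1 and 1, and Cox4i2 had 8 and 7 against 9, 3 and 7, too few for the test. Muscle markers were low in the same libraries. Of 5 muscle genes the highest was Mylpf, at 9.52 to 13.4 CPM, and the list summed to 14.5 and 11.3 CPM in Toxf/f and 11.9 to 16.3 CPM in Toxf/fPdcd1Cre libraries. Its part in the isoform values was not tested.

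In complex V, 14 of 17 tested nuclear members had a fold change above 0, with a median of 0.12. Atp5b had 1085 and 990.4 CPM in Toxf/f and 1040, 1163 and 1150 CPM in Toxf/fPdcd1Cre libraries, and the groups overlapped. Atp5h, a subunit of the peripheral stalk, had 308 and 248 CPM against 315, 344 and 315 CPM. Atp5c1, the gamma subunit of the rotating central stalk, had 324 and 299 CPM against 372, 346 and 349 CPM. In both genes every Toxf/fPdcd1Cre library was above the Toxf/f libraries, with log2 fold changes of 0.22 ± 0.143 and 0.19 ± 0.131 (SE; adjusted p = 0.689 and 0.716, edgeR).

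Toxf/f replicate 3 was the lowest of the 5 libraries in 73 of the 90 nuclear members, against 24.4% of all genes tested. The pattern ran through every complex, with 38 of 45 in complex I, 4 of 4 in complex II, 7 of 8 in complex III, 9 of 16 in complex IV and 15 of 17 in complex V. In this library the nuclear members lay a median of -0.19 from their own mean over the 5 libraries on the log2(CPM + 1) scale. The other libraries lay at 0.07 (Toxf/f of replicates 1 and 2), 0.04, 0.09 and 0.01 (Toxf/fPdcd1Cre replicates 1, 2 and 3). Between the Toxf/f libraries, replicate 3 was lower in 86 of 90 members, by a median of 0.25. The Toxf/f library of replicates 1 and 2 differed from each Toxf/fPdcd1Cre library by a median of -0.07 to 0.01. Thus the difference within Toxf/f was larger than that between this library and the other genotype. Toxf/f replicate 3 lay below Toxf/fPdcd1Cre replicates 1, 2 and 3 by medians of 0.24, 0.29 and 0.21, about as much as within Toxf/f. Which of the 2 Toxf/f libraries better represents the genotype cannot be told.

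**Figure D3:**
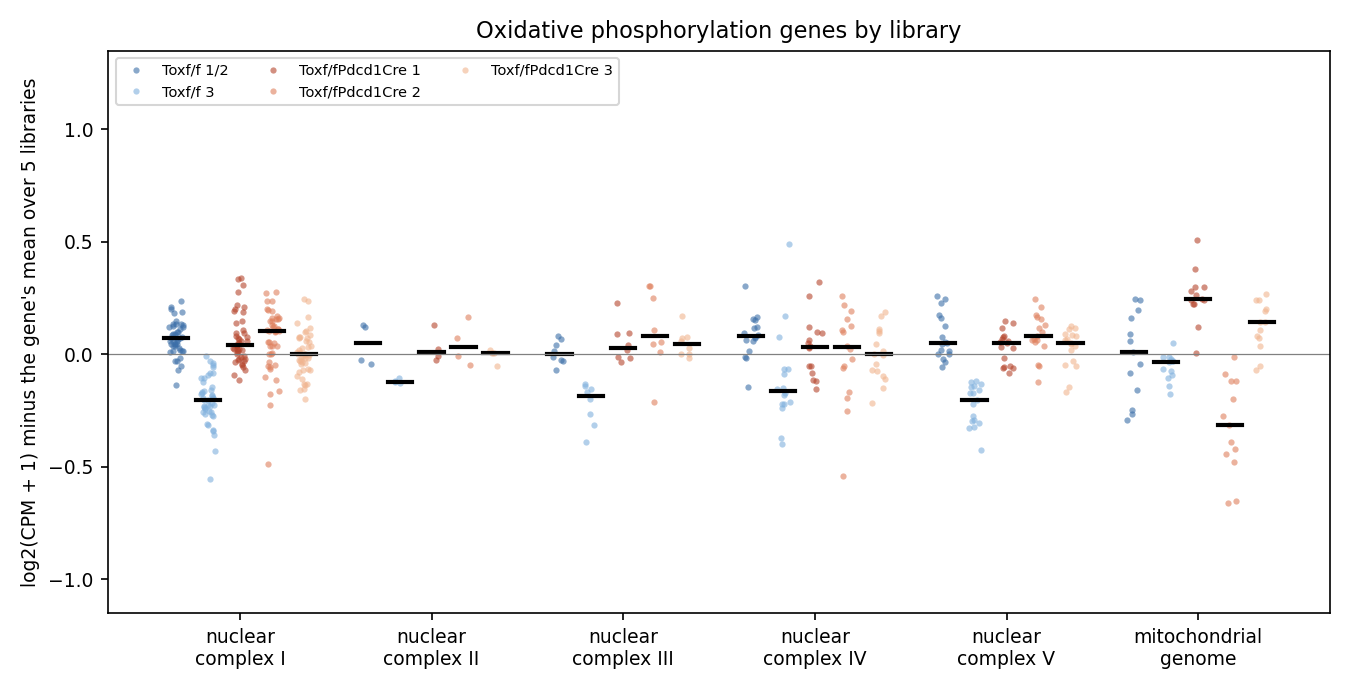
Each tested member's log2(CPM + 1) minus its mean over the 5 libraries, by complex and library, with black bars at the medians. Toxf/f replicate 3 lies lowest in the 5 nuclear groups, and Toxf/fPdcd1Cre replicate 2 has the lowest median over the 13 mitochondrial genes, which are drawn as 1 group.

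The summed level of the nuclear members was 10039 and 8601 CPM in Toxf/f and 9936, 10395 and 10006 CPM in Toxf/fPdcd1Cre libraries, so the groups overlapped. As shares of all counts they were 1.02% and 0.890% in Toxf/f and 1.02%, 1.01% and 0.957% in Toxf/fPdcd1Cre libraries. Wilson 95% intervals of these shares were at most 0.0104 percentage points wide and cover counting error only. Toxf/f replicate 3 was also the lowest by FPKM, with 9291 FPKM in sum against 10063 to 10931 FPKM. Replicate 3 of Toxf/f is the only Toxf/f library from mice 4 weeks old, so its age and the library cannot be told apart. Toxf/fPdcd1Cre replicate 3, of the same age, had the second lowest share of counts and the second lowest sum by FPKM, and the third lowest sum by CPM. A term for genotype by age leaves 1 residual degree of freedom and so has little power. In edgeR it called 4 genes, 0 of them members, and 0 members had an unadjusted p under 0.05. The fitted genotype difference was larger at 4 weeks in 83 of the 90 nuclear members. At that age it sets Toxf/f replicate 3 against Toxf/fPdcd1Cre replicate 3 alone. Toxf/f replicate 3 was the lower of the pair in 82 of 90 nuclear members and in 7655 of the 14121 genes tested. The count therefore cannot separate age from the low level of Toxf/f replicate 3.

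Nuclear members are short, with a median exonic length of 1631 bases against 4408 bases for all genes tested, and gene length moved with the library pattern. Among genes of at least 16 CPM, those of up to 1000 bases lay at a median of -0.17 in Toxf/f replicate 3, those of 1000 to 2000 bases at -0.13 and those above 8000 bases at 0.00. In Toxf/fPdcd1Cre replicate 3, the other library from mice 4 weeks old, the medians of these classes also climbed at the long end, with -0.0041, -0.0064 and 0.10. In the Toxf/f library of replicates 1 and 2 the order was the opposite, with 0.11, 0.07 and -0.07. Toxf/fPdcd1Cre replicate 1 had 0.0050, 0.0093 and -0.06, and replicate 2 had 0.08, 0.06 and 0.04. The 709 genes of up to 2000 bases and at least 16 CPM that are not members lay at -0.13 in Toxf/f replicate 3, where the 79 nuclear members of that level lay at -0.195. The part of length in the members' values was not tested.

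**Figure D4:**
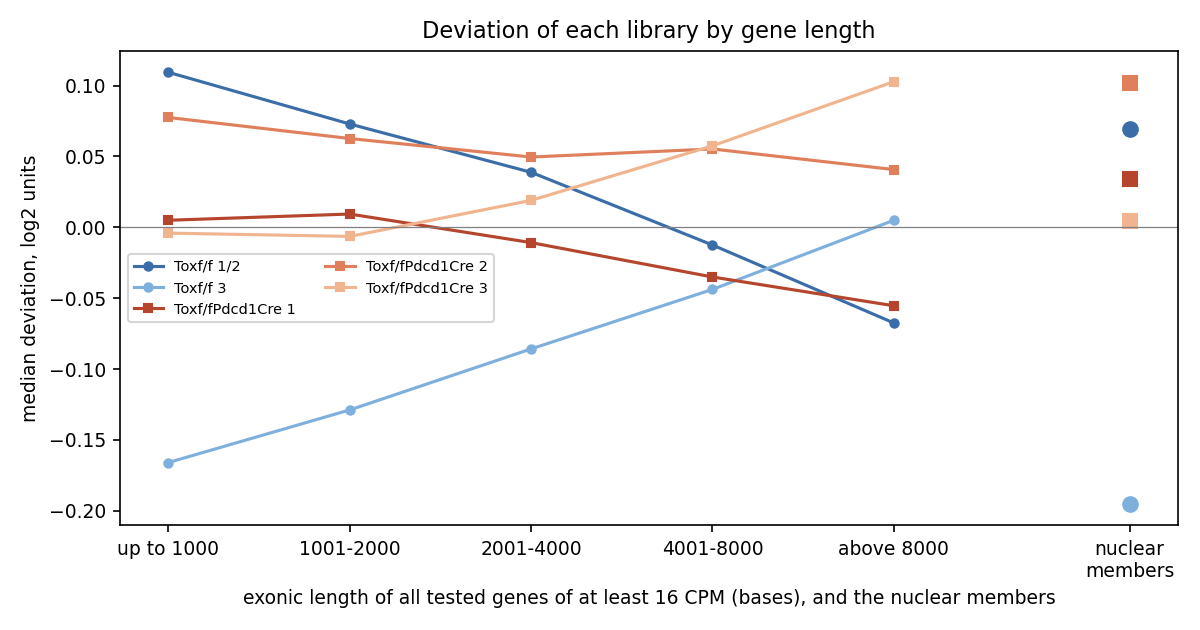
Median deviation of each library (log2 units) from the mean of the 5 libraries, for all tested genes of at least 16 CPM by exonic length, and for the nuclear members at the right. The line of Toxf/f replicate 3 climbs from -0.17 in the shortest class to 0.00 in the longest, and its nuclear members lie at -0.195.

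The 13 mitochondrial genes followed another library pattern. Their sum was 22891 and 24432 CPM in Toxf/f and 30819, 21989 and 27844 CPM in Toxf/fPdcd1Cre libraries, with means of 23662 ± 1090 CPM (SD, n = 2) and 26884 ± 4493 CPM (SD, n = 3). The lowest and the highest library both belonged to Toxf/fPdcd1Cre. As shares of all counts the sums were 2.32% and 2.53% against 3.17%, 2.13% and 2.66%, with Wilson 95% intervals at most 0.0182 percentage points wide. Replicate 1 of Toxf/fPdcd1Cre was the highest library in 9 of the 13 genes. Replicate 2 of that genotype was the lowest in 9 of them, against 18.7% of all genes, and was below replicate 1 in all 13, by a median of 0.54 on the log2 scale. Nuclear members did not share this split: replicate 2 was higher than replicate 1 in 49 of 90.

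Between the genotypes 8 of the 13 mitochondrial genes had a fold change above 0, with a median of 0.07, which became -0.01 by FPKM, -0.10 without Toxf/fPdcd1Cre replicate 1, -0.01 without replicate 3 and 0.18 without replicate 2. The 3 genes of complex IV were higher in the mean of Toxf/fPdcd1Cre. mt-Co1 had 10071 and 11770.5 CPM in Toxf/f and 15189, 11621 and 13613 CPM in Toxf/fPdcd1Cre libraries. Replicate 2 fell between the Toxf/f values, so the groups overlapped (0.30 ± 0.173 SE, adjusted p = 0.621, edgeR). mt-Co2 had 1504 and 1484 CPM against 1894, 1582 and 1539 CPM, and the groups did not overlap (0.16 ± 0.150 SE, adjusted p = 0.829, edgeR). mt-Co3 had 1543 and 1639 CPM against 2097, 1501 and 1902 CPM. All 3 encode the catalytic core of the oxidase.

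The 7 mitochondrial genes of complex I, which form its proton-pumping membrane arm, did not share a direction, with 3 above and 4 below 0. mt-Nd4l, at positions 9877 to 10173 of the mitochondrial genome, had 100.1 and 105 CPM in Toxf/f and 147, 109.7 and 141 CPM in Toxf/fPdcd1Cre libraries. Replicate 2 was close to the Toxf/f values, and the groups did not overlap (0.37 ± 0.149 SE, adjusted p = 0.397, edgeR). Its neighbour mt-Nd4 starts at 10167, within mt-Nd4l, and is read from the same strand. This gene had 1594 and 1443 CPM against 1515, 1023 and 1462 CPM, a log2 fold change of -0.19 ± 0.179 (SE). mt-Nd5 had 1274 and 1494 CPM against 2176, 1099 and 1843 CPM, so that Toxf/fPdcd1Cre libraries spanned both sides of Toxf/f. mt-Nd2 had 347 and 291 CPM against 342, 185 and 337 CPM, and replicate 2 was the lowest. mt-Nd1 had 2223 and 2044 CPM against 2466, 1593 and 2209 CPM, and mt-Nd3 had 138 and 120 CPM against 159, 121 and 126 CPM. In both the groups overlapped.

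mt-Nd6 is the only protein-coding gene on the other strand. It had 162 and 135 CPM in Toxf/f and 177, 86.4 and 140 CPM in Toxf/fPdcd1Cre libraries, with replicate 2 again the lowest. Its end overlaps that of mt-Nd5, and the use of strand in the counting is not given in the sources used here, so reads of the overlap cannot be assigned. mt-Cytb, the catalytic subunit of complex III, had 2222 and 2255 CPM against 2700.2, 1708 and 2703 CPM. mt-Atp6, the channel subunit of ATP synthase, had 1609 and 1566 CPM against 1864, 1283 and 1723 CPM. mt-Atp8, which overlaps the start of mt-Atp6, had 104 and 86.6 CPM against 92.8, 76.3 and 106 CPM. All 3 overlapped between the genotypes.

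**Figure D5:**
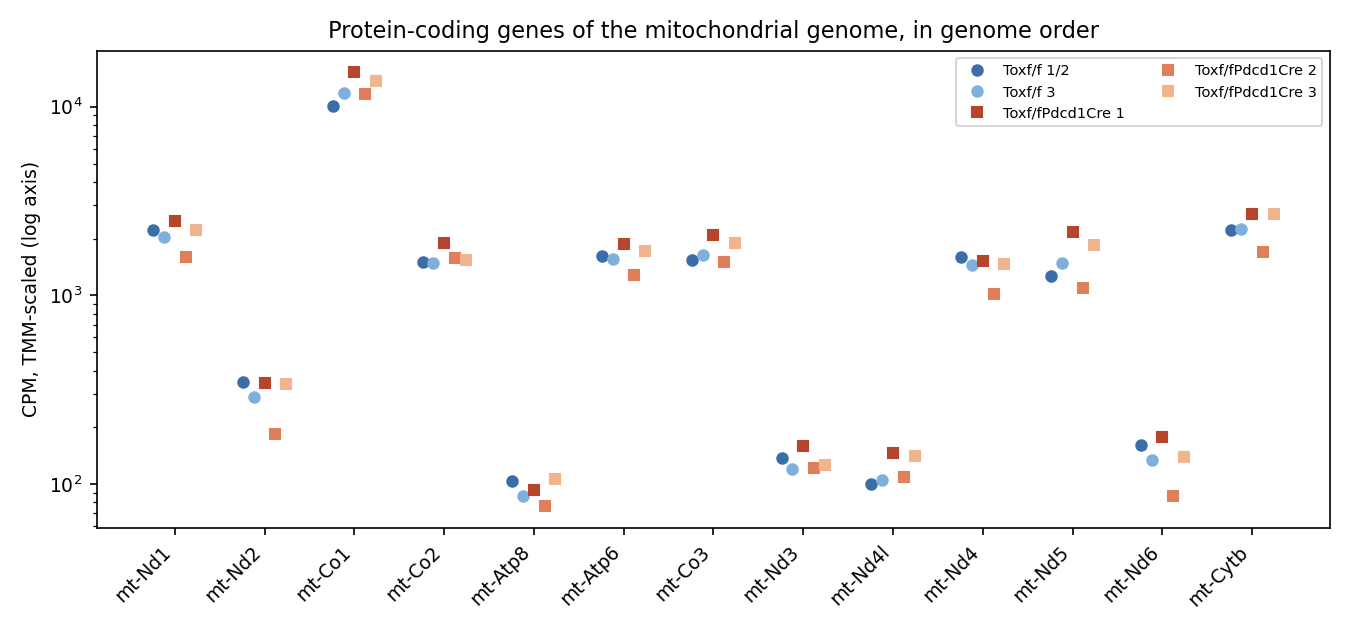
CPM (log axis) of the 13 mitochondrial genes in genome order, 1 point per library, circles for Toxf/f and squares for Toxf/fPdcd1Cre. Toxf/fPdcd1Cre replicate 1 is the highest in 9 genes and replicate 2 the lowest in 9.

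Promoters of the nuclear members were looked at as a description, and their part in the library pattern was not tested. RefSeq windows from 250 bases before to 50 after the start (GRCm38.p6) were matched for 77 of the 95 nuclear symbols. A set of motifs, 3 known from promoters of respiratory genes and the TATA box as a contrast, was searched on both strands. The core of the nuclear respiratory factor 1 motif (CGCATGC) was in the windows of 13 members, 16.9% of those matched, against 4.01% of 27025 genes. The ETS-family core (CCGGAAG), which GABP binds, was in 24.7% against 9.93%, and a YY1 core (AAGATGG) in 15.6% against 7.28%. The TATA box (TATAAA) was in 10.4% against 15.7%. These are matches of letters and not measured sites. The 27025 genes are all genes with a window and not only the 14121 tested here. The part of expression in these shares was not tested. The first core reads nearly the same on both strands, and in 8 members the matches on the 2 strands overlapped before the start. Of these, 6 had 30 bases on either side that lay inside the window and before the start. They are shown 5′ to 3′ on the gene's strand, with the overlapping matches in capitals.
Ndufa11, an accessory subunit of complex I, chr17:56717673-56717740, plus strand: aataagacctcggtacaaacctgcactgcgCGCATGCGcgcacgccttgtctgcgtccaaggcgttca
Ndufaf4, a complex I assembly factor, chr4:24897941-24898008, plus strand: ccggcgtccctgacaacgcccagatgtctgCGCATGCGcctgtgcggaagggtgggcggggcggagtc
Cox6a1, a subunit of complex IV, chr5:115349082-115349149, minus strand: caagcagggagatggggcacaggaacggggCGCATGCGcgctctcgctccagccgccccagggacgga
Atp5g2, of the c ring of ATP synthase, chr15:102671051-102671118, minus strand: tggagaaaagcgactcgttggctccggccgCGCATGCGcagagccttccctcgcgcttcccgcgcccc
Atp5j, of the peripheral stalk of ATP synthase, chr16:84835086-84835153, minus strand: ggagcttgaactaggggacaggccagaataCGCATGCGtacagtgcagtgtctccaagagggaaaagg
Atp5k, a membrane subunit of ATP synthase, chr5:108434411-108434478, minus strand: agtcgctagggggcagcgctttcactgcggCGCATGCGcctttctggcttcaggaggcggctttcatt

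These 6 genes had log2 fold changes of 0.11 (Ndufa11), 0.07 (Ndufaf4), 0.05 (Cox6a1), -0.01 (Atp5g2), 0.19 (Atp5j) and 0.11 (Atp5k), and none passed the test. The gene of the factor itself, Nrf1, had 94.8 and 88.9 CPM in Toxf/f and 88.5, 112 and 107 CPM in Toxf/fPdcd1Cre libraries (0.16 ± 0.140 SE, adjusted p = 0.818, edgeR). The groups overlapped.

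Other genes of respiration were counted from lists of assembly factors, carriers, mitochondrial DNA expression, regulators, the citric acid cycle, glycolysis, membrane channels and antioxidants. Of 158 tested genes, 0 changed, against 1.64% of all genes tested. There were 2 at an unadjusted p under 0.05, 103 had a fold change above 0, and the median was 0.07. Tfam, which packages and transcribes mitochondrial DNA, had 84.8 and 80.1 CPM in Toxf/f and 94.1, 96.3 and 97.1 CPM in Toxf/fPdcd1Cre libraries. The groups did not overlap (0.22 ± 0.123 SE, adjusted p = 0.620, edgeR). Atpif1, the inhibitor of the ATP synthase, had 96.4 and 80.1 CPM against 116, 96.7 and 112 CPM, and its lowest Toxf/fPdcd1Cre value stood at the level of the Toxf/f library of replicates 1 and 2. Idh2, an NADP-linked enzyme of the mitochondrial matrix, had 111 and 112 CPM against 137, 135 and 124 CPM (0.25 ± 0.124 SE, adjusted p = 0.538, edgeR). The glycolytic enzyme Tpi1 had 199 and 163 CPM against 311, 185 and 239 CPM, and Slc16a1, a lactate carrier, had 241 and 197 CPM against 281, 238 and 299 CPM. The groups overlapped in both. Glycolysis genes had a median of 0.05 and citric acid cycle genes a median of 0.13.

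Lists of 5 markers each were compared between these libraries, where fewer cells and less RNA per cell cannot be told apart. Mature T cell markers had 4 of 5 lower (Ccr7, Klf2, S1pr1 and Il7r), dendritic cell markers 1 of 5 (Flt3) and early double-negative markers 1 of 5 (Cd44), against 1.51% of all genes tested. In the early double-negative list 3 of 5 had a fold change above 0, and the list's median was 0.025. The double-positive, B cell, macrophage, erythroid, epithelial and muscle lists had 0 called, with 0, 3, 2, 3, 0 and 0 genes at an unadjusted p under 0.05 in edgeR. Dendritic cell markers had 4 at that level. Summed mature T cell markers were 427 and 490 CPM in Toxf/f and 291 to 303 CPM in Toxf/fPdcd1Cre libraries. Macrophage markers summed to 686 and 600 CPM in Toxf/f and 315, 440 and 412 CPM in Toxf/fPdcd1Cre libraries. B cell markers summed to 51.7 and 74.8 CPM against 40.0 to 49.6 CPM, and dendritic cell markers to 49.8 and 69.9 CPM against 43.9, 35.1 and 31.0 CPM. The summed levels of these 4 lists were lower in every Toxf/fPdcd1Cre library than in both Toxf/f libraries. Of single genes tested, 13.5% were lower in the same way. For B cell markers the nearest sums were 51.7 and 49.6 CPM. Erythroid markers, led by Hbb-bs and Hba-a2, summed to 1035 and 1432 CPM in Toxf/f and 473, 1055 and 734 CPM in Toxf/fPdcd1Cre libraries. They were highest in Toxf/f replicate 3, where nuclear members were lowest. The mature T cell, B cell and dendritic cell sums were highest in that library too. Early double-negative markers summed to 347 and 515 CPM in Toxf/f and 550, 446 and 491 CPM in Toxf/fPdcd1Cre libraries. They were lowest in the Toxf/f library of replicates 1 and 2. Double-positive markers summed to 8587 and 7920 CPM against 7808, 10202 and 9656 CPM. Erythroid markers were lowest in Toxf/fPdcd1Cre replicate 1, where mitochondrial genes were highest. In Toxf/fPdcd1Cre replicate 2 they were second highest, at 1055 CPM, while the nuclear members had their highest sum, 10395 CPM. The part of any of these lists in the members' values was not tested.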

How the data were processed

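For each sample the authors deposited, per the file headers, a table of estimated counts and FPKM per gene. Among the programs named, per the submitters' processing notes, are fastp 0.18.0, HISAT2 and StringTie 1.3.1, without their roles. The build, annotation and strand use were not given in the sources used here. In each library 8.81% to 9.84% of genes had a count that was not whole, among them 12 members, and the deposited estimated counts were rounded. After filterByExpr 14121 genes were scaled by TMM and fitted with edgeR 4.0.16 (R 4.3.3) for the difference of Toxf/fPdcd1Cre from Toxf/f, with Benjamini-Hochberg adjustment over all genes and a threshold of 0.05. The design had 3 against 3 samples and became 2 against 3 because of the identical files. Alternatives used limma 3.58.1, DESeq2 1.42.0, other scalings, filters and covariates, and leaving out each library. The fit was tested on simulated data.

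The members and lists were chosen with earlier results of these data known. Genes were named by a rule: all mitochondrial members, members past the threshold, the 2 highest by FPKM and the 2 smallest p in each nuclear class, isoforms with their partners, and in related lists the genes past the threshold or the 2 smallest p. Of each cell type list the 2 highest were eligible. The text gives a selection of the related and marker genes. Cyc1, Cox5b-ps and the cell type markers that passed the threshold were named after their values were seen, and promoters were chosen by motif. Positions and exonic lengths come from GENCODE M21 (GRCm38), matched by Ensembl identifier, whose build may differ from that of the files. There, 36 of 109 members overlap another listed gene, and their counts are uncertain to that extent. Figures were drawn with matplotlib 3.10.9.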

Additional observations from a re-analysis of the deposited data

How the results depend on the processing

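The count of members changed stayed at 0 under all 17 alternatives, with the smallest adjusted p between 0.0510 and 0.895. No call of a member could thus be lost, and directions of uncalled genes moved: 38 of the tested members changed sign without Toxf/f replicate 3. The count of all genes changed, 232, was 417 with no filter, 124 at 10 CPM or more in 2 libraries, 359 with DESeq2, 125 with limma on log2(FPKM + 1), 125 with age as a covariate, 380 with the identical files entered as 2 libraries and 31 to 606 when each library was left out. Related genes called, 0, became 1 with no filter, DESeq2 or age as a covariate, and 0 to 1 when each library was left out. The replicate numbers could not be shown to pair libraries, since only 2 pairs remain, with deviations correlated at -0.155 and -0.134. The shared library, numbered 2 in its headers, correlated at 0.073 with Toxf/fPdcd1Cre replicate 2. Deviations of the 2 Toxf/f libraries from their mean mirror each other, so these correlations are not independent and cannot show pairing. With the replicate block 435 genes and 2 related genes were called, and with the shared library given number 2, chosen after seeing the data, 868 and 1. The smallest adjusted p of a member under the block was 0.0510 (mt-Nd4l, edgeR). The median fold change of nuclear members ran from -0.026 to 0.25, and the log2 ratio of their summed levels from 0.010 to 0.23, when each library was left out. Where 1 Toxf/f library remained it was assumed to vary like the others. Above 0 were 77 of 90 nuclear members with RLE factors, 70 with upper-quartile factors, 78 with mitochondrial genes left out of the library size and 65 by FPKM. Low counts limit the isoforms most.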

Other observations

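Nnt, which encodes a proton-driven transhydrogenase of the inner mitochondrial membrane, is known to carry a deletion in the C57BL/6J substrain, and the labels name only C57BL/6. The files list it as 2 gene models with counts that are not whole. The first model had 704 and 470 counts in Toxf/f and 1234, 1149 and 746 in Toxf/fPdcd1Cre libraries, a log2 fold change of 0.93 ± 0.233 (SE) with an adjusted p of 0.0878 (edgeR), the smallest among the related genes. It was called under 6 of the 17 alternatives, among them DESeq2 (adjusted p = 0.0124), with adjusted p from 0.000240 to 0.0367 where called. These include both replicate blocks, whose pairing could not be shown. It was not called with limma on log2(FPKM + 1) (adjusted p = 0.314), and its log2 fold change was 0.63 without Toxf/f replicate 3. The second model had 563 and 142 counts in Toxf/f and 0, 11.6 and 274 in Toxf/fPdcd1Cre libraries. Summed over both models Nnt had 1267 and 612 counts against 1234, 1161 and 1020, or 81.1 and 36.9 CPM against 84.3, 74.1 and 70.2 CPM. The sum therefore overlapped between the genotypes, with Toxf/f replicate 3 alone low, while the split between the models differed from library to library. What decided that split was not tested.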
